A study of Mus musculus with 6 samples.

Results

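The genes described here are interferon-induced genes and the receptors, transcription factors and feedback regulators of the interferon system. The list names 44 genes, and a gene was measured where the array has a probe set annotated to it alone. This held for 40 of the 44, out of 12393 genes measured in all. Where several probe sets name a gene, the brightest on average was used, with no filter on brightness. Ddx58, Ifi44, Xaf1 and Isg15 were not analysed here, the last because its probe set carries a further gene symbol.

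RNA came from white adipose tissue of 8-week-old mice on a mixed C57BL6 and 129 background, kept at 4 °C for 4 days. Both groups carried YY1flox/flox alleles, so that Yy1 can be removed by Cre recombinase. The 3 control samples had no Cre by the design text, and the 3 YY1aKO samples carried Adiponectin Cre, which drives Cre in adipocytes, so that other cells of the tissue keep Yy1. What Cre itself or strain alleles did and what Yy1 loss did cannot be told apart. The labels name both the visceral (EWAT in the titles) and the subcutaneous depot, and the series title places the deletion in brown fat. They do not say whether each sample was a separate animal, so p-values measure the spread between these samples, which may be technical.

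Interferons are cytokines released by cells that detect viral or displaced nucleic acid, or, for interferon gamma, by activated lymphocytes. They bind cell-surface receptors whose kinases activate STAT proteins, which enter the nucleus, alone or with IRF9, and switch on a shared set of antiviral genes. Many of these genes carry the interferon-stimulated response element (ISRE), a repeat of GAAA, or the gamma-activated sequence (GAS). In fat, adipocytes, macrophages and endothelial cells can all respond. Yy1 encodes a zinc-finger DNA-binding protein known both as an activator and as a repressor.

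Values are intensities on a linear scale, and fold changes are YY1aKO over control. They are given as log2 differences ± SE from limma, with 3 samples per group unless stated. A gene was called higher or lower at a Benjamini-Hochberg adjusted p under 0.05 over all 12393 genes. The arrays had median intensities of 134 to 140.2, and their number limits the precision of every value. Yy1 stood at 1596 to 1846 in the control samples, against 315 to 373 in the YY1aKO samples, a log2 difference of -2.37 ± 0.11 (limma adjusted p = 0.00275). Control 2 stood apart. Over all genes, which are no independent replicates, its Pearson correlation with each other array was 0.912 to 0.945, and 0.963 to 0.996 among the other 5. The summed intensity of 7 epididymal genes reached 102400 there, 200.4 and 917 in controls 1 and 3 and at most 229.6 in YY1aKO. Summed levels of adipocyte genes such as Adipoq and Fabp4 were high on every array (57060 in control 2 and 79550 to 90190 on the other 5). The members' values are therefore also given without control 2, as 2 control against 3 YY1aKO samples.

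Promoters of members that rose are printed here because they hold the response element described above. From the RefSeq promoter table (GRCm38.p6), which matched 33 of the 40 measured members, the 250 bases before the first listed start of each gene were searched on both strands. The members were listed as genes of the interferon system, so an excess of ISRE or GAS matches over all genes says nothing about the YY1aKO samples. An ISRE core (GAAA, then any 2 bases, then GAAA) lay in 11 of the 33, or 33.3%, against 3.04% of 27025 genes. A GAS (TTCNNNGAA) lay in 9, or 27.3%, against 7.18%, and a YY1 core (GCCATNTT) in none, against 3.93%. At so low a share, none among 33 promoters cannot be told apart from the share of all genes. Irf8 holds a YY1 core before its other listed start, and for no other member and motif did a further start change the result. The GAS of Bst2 overlaps its ISRE core, and no match says only that these letters are not in that window. Below are 120 bases each of Ifit1 (chr19:34640755-34640874, plus strand, bases -134 to -15 from the start), Igtp (chr11:58199436-58199555, plus strand, bases -120 to -1), Gbp3 (chr3:142559924-142560043, plus strand, bases -120 to -1) and Bst2 (chr8:71537513-71537632, minus strand, bases -160 to -41), read 5′ to 3′ on the gene's strand. Capitals mark the ISRE core on either strand, so TTTC repeats are the core read on the other strand. Ifit1 and Igtp were called with all 6 arrays, and Gbp3 and Bst2, called without control 2, were added after their values were seen.
Ifit1: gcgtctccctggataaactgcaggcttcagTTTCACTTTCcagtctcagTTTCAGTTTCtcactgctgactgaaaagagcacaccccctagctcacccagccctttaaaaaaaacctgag
Igtp: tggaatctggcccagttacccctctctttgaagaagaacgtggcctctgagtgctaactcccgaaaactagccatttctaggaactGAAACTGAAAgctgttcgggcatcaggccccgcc
Gbp3: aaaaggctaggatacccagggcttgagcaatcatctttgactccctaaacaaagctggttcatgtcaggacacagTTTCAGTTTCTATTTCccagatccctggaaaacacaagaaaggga
Bst2: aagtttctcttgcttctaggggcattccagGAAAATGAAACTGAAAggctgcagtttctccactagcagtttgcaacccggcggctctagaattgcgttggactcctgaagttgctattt
Overlapping cores run together in Gbp3 and Bst2, while Ifit1 holds 2 separate ones. Of the 8 members called higher without control 2, 6 have a promoter in the table and 4 of these hold the core. It was also found in 7 of the 27 other members with a promoter, which were not called higher in either fit.

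With all 6 arrays, 5 of the 40 members were higher in YY1aKO and none was lower by limma, while 10 and 1 had an unadjusted p under 0.05. Those are 25% and 2.5% of the members, beside 16.6% and 11.5% of all genes. The 5 were Usp18, Ifit1, Dhx58, Irf7 and Igtp. That is 12.5% of the members, beside 6.85% of all genes called higher and 3.99% called lower. The median log2 difference was 0.23 over the members and 0.04 over all genes. Without control 2 the same 5 members were higher together with Gbp3, Bst2 and Irf9, and Ifngr1 was lower. These 8 make 20% of the members, beside 14.7% of all genes called higher, and the single lower member stands beside 11.5% of all genes called lower. The median was then 0.13 over the members and 0.01 over all genes. Without control 2, 31 of the 40 members were called in neither direction. In bulk tissue, fewer cells of a type and less RNA per cell cannot be told apart.

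**Figure D1:**
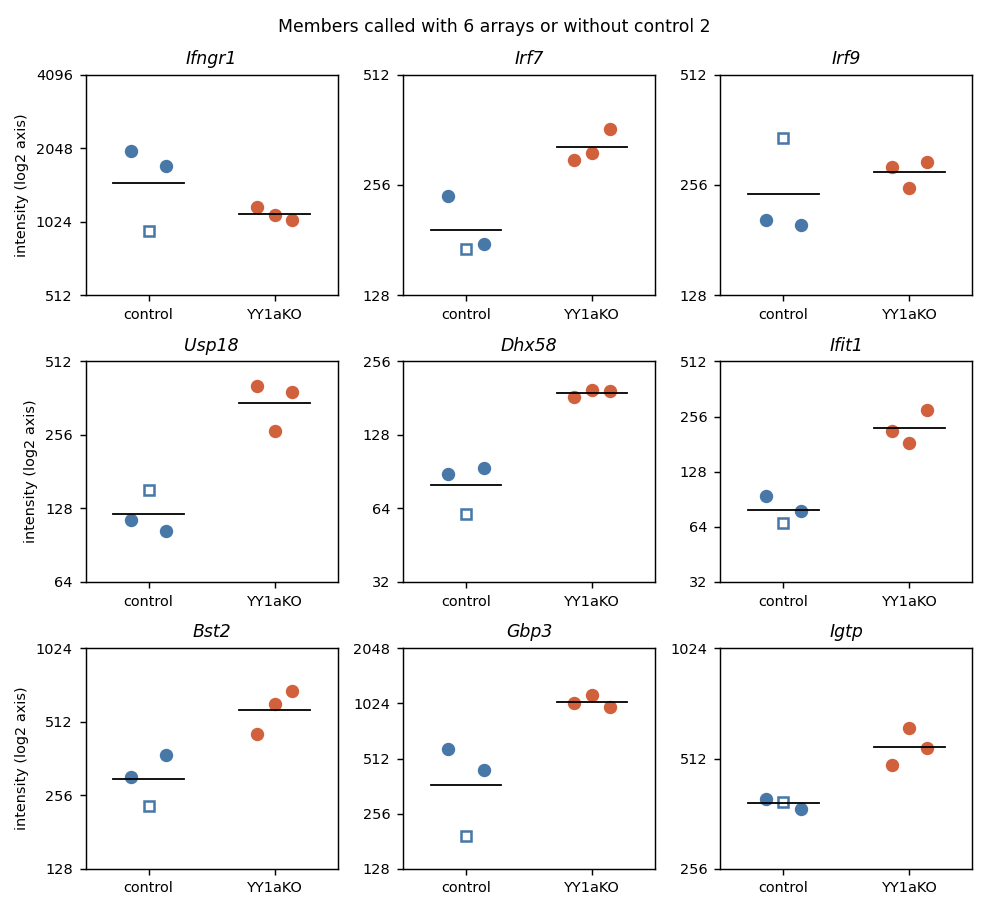
Intensity (log2 axis) of the 9 members called with 6 arrays or without control 2, one panel per gene, controls on the left and YY1aKO on the right. Points are single arrays, the open square is control 2 and black lines are means of the log2 values. Usp18, Ifit1, Dhx58, Irf7, Bst2, Gbp3 and Igtp have all 3 YY1aKO values above all controls, while control 2 lies highest for Irf9 and lowest for Ifngr1.

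Among the receptors, Ifngr1, the ligand-binding chain of the interferon gamma receptor, differed most. Listing replicates 1 to 3 in order, as throughout, it stood at 1998, 933 and 1721 in the control samples, against 1179, 1092 and 1035 in the YY1aKO samples. All YY1aKO values lay below controls 1 and 3 and above control 2. The log2 difference was -0.42 ± 0.29 with 6 arrays (adjusted p = 0.399) and -0.75 ± 0.11 without control 2, or 1.69-fold lower (adjusted p = 0.00678). Dropping control 2 together with each other array in turn, it was called lower in 5 of 5 fits, at -0.86 to -0.65. Its partner chain Ifngr2 was not called (-0.01 ± 0.29, and 0.31 ± 0.13 without control 2), and its readings were 443, 824 and 405 in controls 1 to 3. The chains of the type I receptor were not called either. Ifnar1 differed by 0.07 ± 0.13 and Ifnar2 by 0.04 ± 0.20. Without control 2 they were at -0.06 and -0.17, and their 95% intervals ran from -0.26 to 0.15 and from -0.44 to 0.10.

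Of the 7 transcription factors, Irf7 was the one called with 6 arrays, or 14.3%, beside 6.85% of all genes called higher. Irf7 and Irf9, both higher without control 2, make 28.6%, beside 14.7% of all genes. IRF7 amplifies type I interferon production and is itself induced by interferon. It stood at 239, 171 and 176 in the control samples, against 299.8, 313 and 364 in the YY1aKO samples. Every YY1aKO sample was above every control, and the rise was 0.75 ± 0.16 on the log2 scale, or 1.68-fold (adjusted p = 0.0421). Without control 2 it was 0.66 ± 0.16 (adjusted p = 0.0321). Irf9, the DNA-binding partner of the STATs in type I signalling, stood at 206, 342 and 199 in the control samples, against 287, 251 and 296 in the YY1aKO samples. The YY1aKO values lay between control 2 and the other controls. Irf9 was higher by 0.46 ± 0.10 without control 2, or 1.37-fold (adjusted p = 0.0243), and differed by 0.20 ± 0.23 with all arrays (adjusted p = 0.609). Stat2, which pairs with IRF9, differed by 0.37 ± 0.18 and was not called (0.49 ± 0.17 without control 2, adjusted p = 0.0827). The interferon gamma target Irf1 (0.12 ± 0.16), the constitutive factor Irf3 (-0.06 ± 0.09) and the myeloid factors Irf5 (0.12 ± 0.28) and Irf8 (0.02 ± 0.20) were not called in either fit. Without control 2, Irf1 was at 0.005 ± 0.14 and Irf3 at -0.09 ± 0.09, and Irf5 and Irf8 changed sign, to -0.18 and -0.16.

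Usp18, the protease that removes ISG15 from proteins and dampens type I receptor signalling, had the largest log2 rise of the 5 members called with 6 arrays. It stood at 114, 153 and 103 in the control samples, against 407, 266 and 385 in the YY1aKO samples. The lowest YY1aKO value was above the highest control, which was control 2. The rise was 1.51 ± 0.22, or 2.85-fold (adjusted p = 0.0173), and 1.67 ± 0.20, or 3.19-fold, without control 2 (adjusted p = 0.00446). Socs1, an inhibitor of the receptor kinases, stood at 39.0 to 43.5 in the control samples, against 41.5 to 44.6 in the YY1aKO samples and was not called. Its difference was 0.05 ± 0.09 in both fits, with a 95% interval of -0.17 to 0.26 with 6 arrays. Both levels were low on this array, and how much of such a reading is background was not measured here.

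Of the 7 measured sensors and enzymes that bind double-stranded RNA, 1 was called higher in each fit. That is 14.3%, beside 6.85% of all genes called higher with 6 arrays and 14.7% without control 2. Dhx58, which encodes the RIG-I-like helicase LGP2, stood at 88.6, 60.5 and 94.1 in the control samples, against 183, 196 and 193 in the YY1aKO samples. The YY1aKO values lay close together and well above the controls. The rise was 1.26 ± 0.18, or 2.39-fold (adjusted p = 0.0163), and 1.06 ± 0.08, or 2.09-fold, without control 2 (adjusted p = 0.00192). Its other probe sets were dimmer and differed by 0.56 and 0.45, and neither was called with 6 arrays (limma adjusted p = 0.0989 and 0.0605 among all probe sets). Without control 2 the dimmest passed, at 0.38 (adjusted p = 0.0454). With the mean of its probe sets Dhx58 was higher by 0.76 with 6 arrays (limma adjusted p = 0.0247). The related sensor Ifih1 (MDA5) was not called. It stood at 782, 351 and 546 in the control samples, against 636 to 716 in the YY1aKO samples, with a difference of 0.33 ± 0.29 that was 0.03 ± 0.16 without control 2.

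Eif2ak2 encodes PKR, the kinase that halts translation on binding double-stranded RNA. It stood at 289, 230.4 and 261 in the control samples, against 385, 309.6 and 381 in the YY1aKO samples. The groups did not overlap, but the difference of 0.46 ± 0.14 was not called (adjusted p = 0.0881), nor was the 0.38 ± 0.13 without control 2 (adjusted p = 0.0794). Its dimmer probe set differed by 0.09. Adar, which edits adenosines in double-stranded RNA, was the one member with all YY1aKO values below all controls. It stood at 115, 118 and 98.9 in the control samples, against 97.9, 80.3 and 91.2 in the YY1aKO samples, a difference of -0.30 ± 0.12 that was not called (adjusted p = 0.17), nor was the -0.25 ± 0.12 without control 2. The oligoadenylate synthetase family did not pass in either fit. Oas2 differed by 0.26 ± 0.21, Oasl1 by 0.30 ± 0.15 and Oasl2 by 0.40 ± 0.24. Without control 2 the differences were 0.12 ± 0.20, 0.24 ± 0.15 and 0.14 ± 0.12. Oasl2 was lowest in control 2, at 86.5, with 164 and 131 in controls 1 and 3.

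The antiviral effectors were led by Ifit1, whose protein binds viral RNA that lacks the host cap methylation. It stood at 94.4, 67.5 and 78.1 in the control samples, against 212, 184 and 277 in the YY1aKO samples. The lowest YY1aKO value was well above the highest control. The rise was 1.48 ± 0.20, or 2.79-fold (adjusted p = 0.0145), and 1.37 ± 0.19, or 2.58-fold, without control 2 (adjusted p = 0.0067). Other genes of its family were not called. Ifit3 stood at 578, 264 and 602 in the control samples, against 669, 792 and 634 in the YY1aKO samples, with no overlap. It differed by 0.62 ± 0.34, or 0.24 ± 0.12 without control 2, and was called in neither fit. Ifit2 overlapped between the groups (0.17 ± 0.22, and -0.02 ± 0.16 without control 2). Whether the probe sets of the Ifit, Oas and GTPase families also bind transcripts of close paralogs was not tested.

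Bst2, the tetherin that holds budding virions at the cell surface, stood at 304, 232 and 373 in the control samples, against 456, 605 and 681 in the YY1aKO samples. The groups did not overlap. With 6 arrays the difference was 0.95 ± 0.23 (adjusted p = 0.0546), and without control 2 it was higher by 0.77 ± 0.19, or 1.70-fold (adjusted p = 0.036). The dynamin-like GTPases Mx1 and Mx2 were low throughout. Mx1 stood at 30.0, 27.8 and 30.4 in the control samples, against 36.5, 36.2 and 47.4 in the YY1aKO samples (0.44 ± 0.13, adjusted p = 0.0968, and 0.40 ± 0.14 without control 2). Mx2 stood at 59.7, 73.2 and 64.5 in the control samples, against 73.8, 76.9 and 73.4 in the YY1aKO samples (0.19 ± 0.10, adjusted p = 0.296, and 0.27 ± 0.08 without control 2). Both were without overlap and without a call in either fit. Rsad2 (viperin), a radical enzyme that makes a chain-terminating nucleotide, spread widely within YY1aKO, from 485 to 854. Control 2 was the lowest control, at 236 with 545 and 522 in the other controls. Rsad2 differed by 0.64 ± 0.39, or by 0.25 ± 0.23 without control 2, and was called in neither fit. Samhd1, a nucleotide hydrolase, differed by 0.01 ± 0.30, or by -0.32 ± 0.14 without control 2. Isg20, an RNA exonuclease, stood out in control 2 at 2126, with 439 and 406 in controls 1 and 3 and 388 to 527 in YY1aKO. It was not called, and its difference went from -0.69 ± 0.66 with 6 arrays to 0.08 ± 0.14 without control 2.

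The interferon-inducible GTPases act against intracellular pathogens and are strongly induced by interferon gamma. Igtp stood at 398, 389 and 372 in the control samples, against 492, 621 and 548 in the YY1aKO samples. The controls lay within a narrow range that all YY1aKO samples exceeded. The rise was 0.51 ± 0.11, or 1.43-fold (adjusted p = 0.041), and 0.52 ± 0.12 without control 2 (adjusted p = 0.0274). Gbp3, a guanylate-binding protein, stood at 577, 194 and 441 in the control samples, against 1034, 1137 and 974 in the YY1aKO samples. The groups were far apart, and the controls were spread by the low reading of control 2. The difference of 1.51 ± 0.40, or 2.85-fold, was not called with 6 arrays (adjusted p = 0.0684). Without control 2 Gbp3 was higher by 1.05 ± 0.14, or 2.07-fold (adjusted p = 0.00596). Gbp2 (0.90 ± 0.46, and 0.39 ± 0.18 without control 2) and Iigp1 (0.87 ± 0.41, and 0.49 ± 0.30) were called in neither fit, and for both the control 2 reading was the lowest. Irgm1, a regulator of the other GTPases, stood at 297 to 314 in the control samples, against 299.8 to 314 in the YY1aKO samples. Its difference was 0.02 ± 0.08, with a 95% interval of -0.18 to 0.21, and 0.03 ± 0.08 without control 2. Ifi47 differed by -0.02 ± 0.15, or by -0.15 ± 0.11 without control 2, and overlapped as well.

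None of the 5 measured members with other roles was called in either fit. Ifi35 stood at 586, 454 and 536 in the control samples, against 696, 632 and 709 in the YY1aKO samples. The groups did not overlap, and the difference was 0.38 ± 0.12 (adjusted p = 0.112), or 0.28 ± 0.09 without control 2 (adjusted p = 0.0844). The ubiquitin ligase Trim25, which activates RIG-I, differed by 0.18 ± 0.14, or by 0.09 ± 0.12 without control 2. Trim30a (-0.08 ± 0.16), the ADP-ribosyltransferase Parp14 (0.29 ± 0.27) and the nuclear body protein Sp100 (0.03 ± 0.32) overlapped between groups. Without control 2, Trim30a was at -0.25 ± 0.09, and Parp14 and Sp100 took the opposite sign, at -0.006 and -0.31. Counted over all members, the 3 YY1aKO values lay above every control in 12 of 40 (30%), beside 22.4% of all genes, and below in 1, beside 15.5%.

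**Figure D2:**
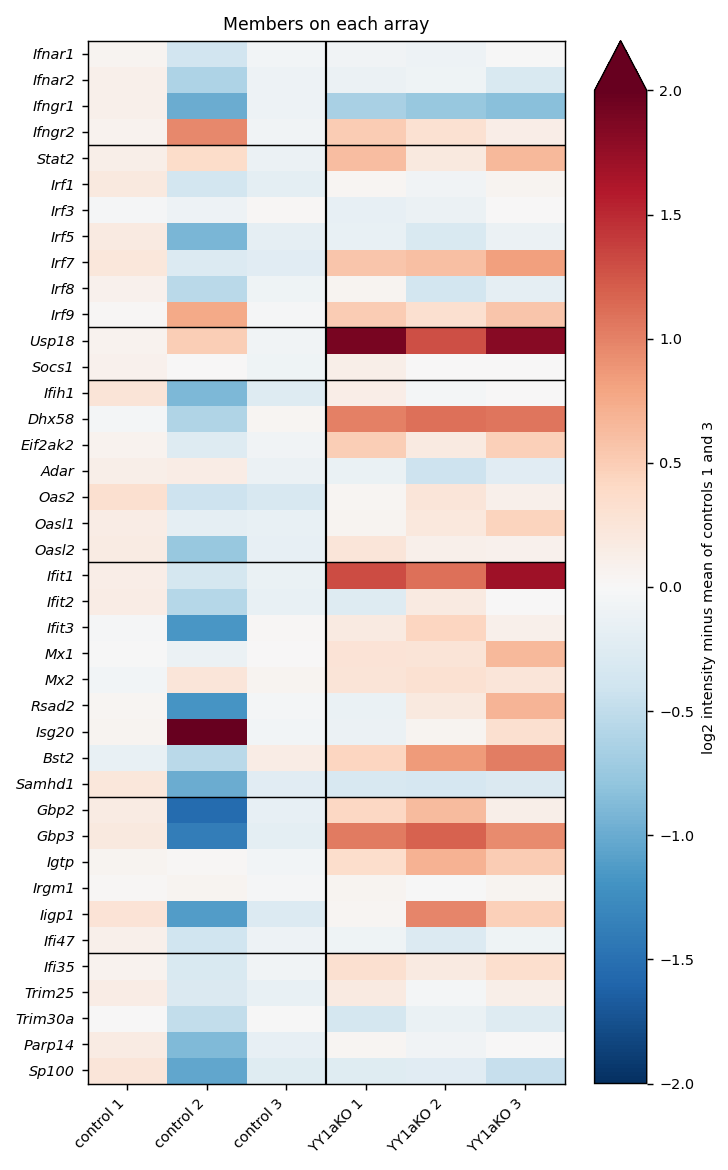
Log2 intensity of the 40 measured members on each array, minus the mean of controls 1 and 3, with horizontal lines between receptors, transcription factors, feedback genes, RNA sensors, antiviral effectors, GTPases and other genes. Red is above and blue below that mean, and the scale ends at 2, which Isg20 exceeds in control 2. Most rows are blue in control 2, and Usp18, Dhx58, Ifit1 and Gbp3 are red in all 3 YY1aKO samples.

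Control 2 was below both other controls in 30 of the 40 members, or 75%, beside 48% of all genes. Its median log2 difference from the mean of controls 1 and 3 was -0.39 over the members and -0.06 over all genes. Leaving it out lowered the difference of Gbp3, Dhx58 and Bst2, raised that of Usp18 and Irf9, and turned the sign of 10 members that were not called in either fit. The share of members with a positive difference went from 82.5% to 67.5%, beside 55.7% and 51.9% of all genes.

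**Figure D3:**
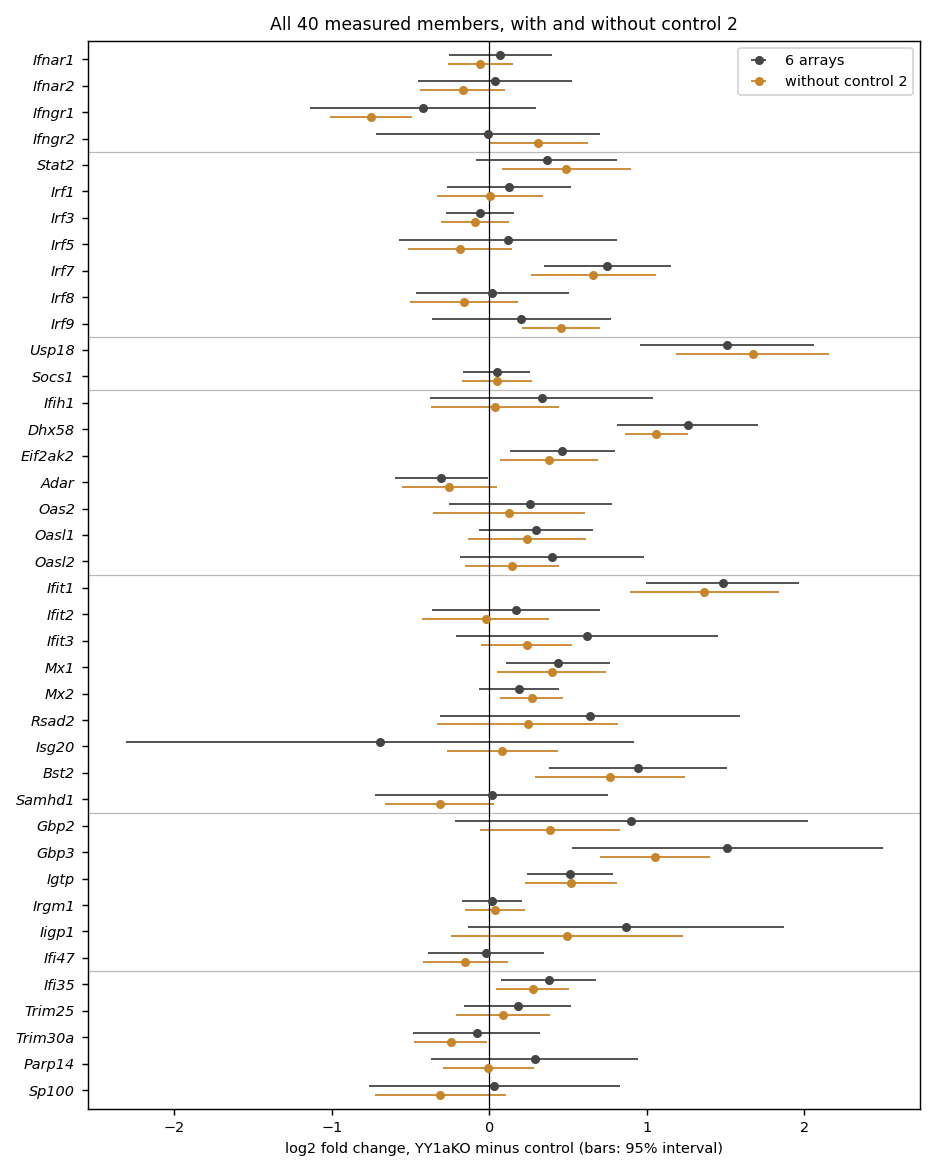
Log2 fold change (YY1aKO minus control) of the 40 measured members in the fit of 6 arrays and in the fit without control 2, with bars for the 95% interval from limma. Members are in the order of their roles, with lines between them. Isg20, Gbp2, Iigp1 and Gbp3 have wide intervals with 6 arrays, and Ifngr1 moves to -0.75 without control 2. Usp18, Dhx58, Ifit1 and Gbp3 lie above 1 in both fits.

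The calls depended on single arrays. No member was called by limma without control 3, YY1aKO 1, YY1aKO 2 or YY1aKO 3, and 25 to 117 genes were called in all. In these fits control 2 was 1 of 2 or 3 controls, and 8 to 11 members were higher at an unadjusted p under 0.05. The share of all genes at that unadjusted threshold was not counted in these fits. With 6 arrays it was 16.6%, beside 25% of the members. Dropping control 2 and each other array in turn, 4 to 7 members were called higher and 1 to 3 lower. Usp18, Ifit1, Dhx58 and Gbp3 were higher in all 5 of those fits, Bst2 and Igtp in 2, and Irf7, Irf9, Stat2 and Eif2ak2 in 1. Samhd1 and Sp100 were called lower without controls 2 and 3. With control 1 alone left out, Igtp was no longer called and Gbp3 was, at 1.84 (adjusted p between 0.00596 and 0.218 over the fits that leave out 1 array). Where 1 control remained, it was assumed to vary like the YY1aKO group.

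**Figure D4:**
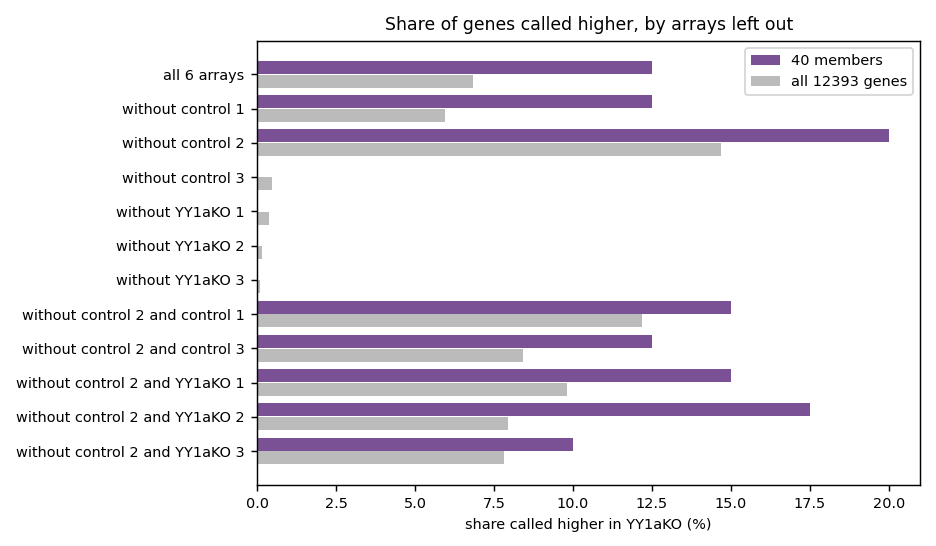
Share called higher in YY1aKO (%, adjusted p under 0.05 in limma) among the 40 members and among all 12393 genes, by the arrays left out. The members' share is 12.5% with all arrays, 0% in the 4 fits that lack control 3 or 1 YY1aKO array but keep control 2, and 10% to 17.5% without control 2 and 1 more, where all genes are at 7.82% to 12.2%.

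Markers of immune and vessel cells were read beside the members. Their part in the results above was not tested. Of 11 measured macrophage and monocyte genes none was called with 6 arrays by limma, and 0 had an unadjusted p under 0.05. Their summed intensity was 14850, 8114 and 15240 in controls and 12360 to 14680 in YY1aKO. Without control 2 the scavenger receptor Cd163 was lower (-0.30, limma adjusted p = 0.047). It makes 9.09% of the 11, beside 11.5% of all genes called lower without control 2. The 4 pan-leukocyte genes, Ptprc among them, summed to 2787, 1103 and 2254 in controls and 1938 to 2573 in YY1aKO, with no call in either fit. Of 13 T and NK cell genes, 4 dendritic cell genes and 5 B cell genes none was called in either fit, and none lay in the brightest 60% of genes. With 6 arrays 0 of these had an unadjusted p under 0.05 in limma. Their sums were 552.9 to 772.3 in controls and 622.6 to 725.7 in YY1aKO for T and NK cells, 155 to 260.0 and 198.8 to 228.3 for dendritic cells, and 158.8 to 418.8 and 237.4 to 470.2 for B cells. Siglech, a marker of plasmacytoid dendritic cells, was not analysed here. Of 5 neutrophil genes, S100a8 and Camp were lower without control 2 (-0.75 and -0.73, limma adjusted p = 0.0314 and 0.0273). They make 40% of the 5, beside 11.5% of all genes called lower in that fit. None of the 5 was called with 6 arrays, where 0 had an unadjusted p under 0.05. The 5 genes summed to 179.7 to 379.9 in controls and 188.1 to 215 in YY1aKO. The 6 endothelial genes summed to 3076, 1023 and 2583 in controls and 1889 to 2336 in YY1aKO. Tek was lower without control 2 (-0.50, limma adjusted p = 0.0386), or 16.7% of the 6, beside 11.5% of all genes. The summed level of each of these lists was lowest in control 2, as were most members. Leaving it out moved the median log2 difference from 0.11 to -0.39 for endothelial genes and from 0.22 to -0.16 for pan-leukocyte genes. For macrophage and monocyte genes it went from 0.10 to -0.12, for B cells 0.17 to -0.03 and for T and NK cells 0.05 to -0.03. For dendritic cells it went from 0.08 to 0.03, and for neutrophils from -0.41 to -0.73. Over all genes the medians were 0.04 and 0.01.

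The interferon genes themselves were dim, with 1 of the 12 ligands and inducing cytokines in the brightest 60% of genes. Of these 12 none was called with 6 arrays by limma, and none had an unadjusted p under 0.05. Ifng, which encodes interferon gamma, stood at 9.34 to 9.69 in the control samples, against 9.84 to 12.6 in the YY1aKO samples (0.24 ± 0.11, adjusted p = 0.232, and 0.24 ± 0.12 without control 2). Ifnb1, which encodes interferon beta, stood at 21.2 to 26.6 in the control samples, against 27.5 to 32.5 in the YY1aKO samples (0.25 ± 0.13, adjusted p = 0.271, and 0.15 ± 0.10 without control 2). At such readings a change in these transcripts may not be measurable on the array. Il18, an inducer of interferon gamma, was lower without control 2, with a log2 difference of -0.84 (limma adjusted p = 0.0161). It makes 8.33% of the 12, beside 11.5% of all genes called lower without control 2.

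Downstream of the receptors, none of 8 measured kinase and STAT genes was called with 6 arrays by limma, and 1 was higher and 1 lower at an unadjusted p under 0.05. Over all genes 6.85% were called higher and 3.99% lower with 6 arrays, and at an unadjusted p 16.6% were higher and 11.5% lower. The kinase Jak1 differed by 0.39 ± 0.11 (adjusted p = 0.073) and was higher without control 2, at 0.31 (adjusted p = 0.0493). It makes 12.5% of the 8, beside 14.7% of all genes called higher without control 2. Jak2 differed by -0.34 ± 0.12 (adjusted p = 0.127), or by -0.25 ± 0.10 without control 2. Of 11 sensing adaptors and kinases none was called with 6 arrays, and 3 were higher at an unadjusted p under 0.05. Zbp1, a sensor of Z-form nucleic acid, stood at 149, 84.3 and 117 in the control samples, against 193, 274 and 219 in the YY1aKO samples. The difference was 1.00 ± 0.24 (adjusted p = 0.0555), and without control 2 it was higher by 0.78 (adjusted p = 0.029). The ligase Traf6 differed by 0.32 ± 0.08 (adjusted p = 0.0576), and both it and Tank were higher without control 2. With Zbp1 these make 3 of the 11, or 27.3%, beside 14.7% of all genes. Of 16 negative regulators 1 was lower, Socs2, a suppressor of cytokine signalling, at -0.45 ± 0.09 (adjusted p = 0.0369). Without control 2, Socs2 and Pias1 were lower and Rnaseh2c, a subunit of the RNase that clears RNA-DNA hybrids, was higher, by 1.07 (adjusted p = 0.00308). That is 12.5% of these regulators lower and 6.25% higher, beside 11.5% and 14.7% of all genes.

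A further 61 interferon-induced genes were listed, of which 44 were measured. With 6 arrays 1 of these was higher and none lower by limma, while 9 and 3 of the 44 had an unadjusted p under 0.05. At that unadjusted threshold 16.6% of all genes were higher and 11.5% lower. The 1 gene called was Rtp4, an interferon-induced chaperone of receptors. It stood at 600.1, 386 and 453 in the control samples, against 1738, 1314 and 1965 in the YY1aKO samples, a rise of 1.81 ± 0.22 (adjusted p = 0.0121). That is 2.27% of this list, below the 6.85% of all genes. Without control 2, Rtp4, Irgm2, Lgals3bp, Lgals9 and Wars were higher, or 11.4% of the list beside 14.7% of all genes. Ifi27l2a and Nampt were lower, or 4.55% beside 11.5%. Ifi27l2a stood at 23565, 10957 and 19619 in the control samples, against 9696 to 11231 in the YY1aKO samples. The share of this second list called higher was below that of all genes in both fits, on few calls. With 6 arrays all YY1aKO values lay above all controls in 25% of the list, beside 22.4% of all genes.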

How the data were processed

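Total RNA was turned into biotin-labelled cRNA and hybridised to 1-colour Affymetrix arrays, 1 per sample, per the labels' protocols. The authors deposited 1 intensity for every probe set on every array. The submitters' processing notes name RMA, whose version, settings and genome build are not given in the sources used here. RMA makes the arrays' distributions alike, so a shift shared by most genes would be lost. Intensities were linear (6.09 to 30322), and their log2 was taken.

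The table held 22690 probe sets, of which 64 controls, 691 with several gene symbols and 1555 with no gene named were left out. The brightest of each gene's 20380 single-symbol probe sets was used, with the platform's annotation. Probe positions are not known, so gene coordinates are given for printed promoters alone.

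limma 3.58.1 in R 4.3.3 (lmFit, eBayes) compared 3 YY1aKO with 3 control samples over 12393 genes, two-sided, with Benjamini-Hochberg adjustment, and again without control 2. The scripts were tested on simulated data. Members and lists were chosen with earlier results of these data known. Members called, or with groups that do not overlap, are given on every array. Of each further list, up to 3 called genes are named, or the 2 with the smallest p, and genes called without control 2 were named after their values were seen. Alternatives were other probe set rules, a brightness filter, other normalizations, an intensity trend, array weights, a replicate block and arrays left out. No sample was dropped or imputed other than where stated.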

Additional observations from a re-analysis of the deposited data

How the results depend on the processing

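Of the 40 members, 5 were called higher and 0 lower, and 1344 genes were called in all. The same 5 members were called with the mean of probe sets, without _s_at and _x_at probe sets, with quantile normalization again and with an intensity trend and robust prior. They made 12.5% of the members, beside 6.15% to 7.11% of all genes called higher in those settings. The brightest 60% of genes (35 members tested) added Bst2 and Gbp3, making 20% called higher, beside 12.9% of all genes tested there. The same median on every array added Bst2, making 15%, beside 7.95% of all genes. Array weights were 0.56, 0.117 and 3.755 for controls 1 to 3, so most of the control weight lay on control 3. The YY1aKO samples had weights of 1.467 to 1.708. That fit called 13 members higher (32.5%, beside 21.3% of all genes), 1 lower and 4893 genes in all. With the replicate block 0 members and 12 genes were called. In that fit 10 members were higher at an unadjusted p under 0.05, and the share of all genes at that threshold was not counted. Nothing in the labels says that the numbers pair the samples. Same-numbered deviations from the group means correlated at -0.124, -0.084 and -0.096. With 3 samples per group and control 2 far from the other controls, these values cannot decide whether samples were paired. The cause of the lost calls was not tested. Over all fits with 1 array, or control 2 and 1 more, left out, the count ran from 0 to 8 members higher, 0 to 3 lower, and 25 to 3239 genes in all.

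Members called with 6 arrays kept their direction in every setting run. The sign of others that were not called turned. With array weights Ifnar1 was at -0.01, Ifnar2 -0.077, Ifngr2 0.34, Irf5 -0.034, Irf8 -0.093, Isg20 0.054, Samhd1 -0.13 and Sp100 -0.10. Irf8 was at -0.004 with the mean of probe sets, Irf3 at 0.10 without _s_at and _x_at probe sets, Ifi47 at 0.001 with quantile normalization and 0.016 with equal medians, and Ifngr2 at 0.029 with equal medians. With arrays left out the log2 differences ran from -0.26 to 0.10 for Ifi47, -0.30 to 0.004 for Trim30a, -0.18 to 0.34 for Ifit2, -0.12 to 0.16 for Ifnar1, -0.27 to 0.19 for Ifnar2 and -0.20 to 0.40 for Ifngr2. They ran from -0.37 to 0.36 for Irf5, -0.27 to 0.15 for Irf8, -1.11 to 0.18 for Isg20, -0.17 to 0.52 for Parp14, -0.54 to 0.29 for Samhd1 and -0.56 to 0.33 for Sp100. For Irgm1 the range was -0.006 to 0.06, for Ifih1 -0.23 to 0.61, for Irf1 -0.20 to 0.28, for Oas2 -0.20 to 0.49, for Oasl2 -0.017 to 0.60, for Socs1 -0.031 to 0.13 and for Trim25 -0.056 to 0.30. The causes were not tested. Low readings, as for Mx1, Socs1 and the interferon genes, limit what the array can show.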

Other observations

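Some interferon-related genes of the second list varied between arrays within both groups. Ifi202b, a gene of the interferon-inducible p200 family, stood at 25.9, 113 and 424 in the control samples, against 25.7, 203 and 251 in the YY1aKO samples. Trim34a stood at 35.4, 155 and 274 in the control samples, against 31.0, 152 and 36.5 in the YY1aKO samples, and Trim12a stood at 14.4, 50.1 and 136 in the control samples, against 17.8, 49.9 and 11.7 in the YY1aKO samples. For all 3 genes control 1 and YY1aKO 1 read low, and the groups overlapped. YY1aKO 3 read low as well for Trim34a and Trim12a, and was the lowest array for Trim12a. These genes were chosen after their values were seen, and the sources of this spread were not tested.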
